A study of Drosophila melanogaster with 2 samples.

Results

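The 73 genes described here encode the proteins of the mitochondrial ribosome. They were chosen by symbol, as the protein-coding genes of the chromosome arms whose names start with mRpL (47 genes, large subunit) or mRpS (26 genes, small subunit), out of 13968 protein-coding genes. A symbol rule misses mitochondrial ribosomal proteins filed under other names, such as tko and bonsai, which are counted separately at the end. The chromatin came from Drosophila melanogaster embryos of both sexes, aged 0 to 16 h, from 1 transgenic line that stably carries Usf with GFP fused to its C-terminus. An antibody against GFP was used for chromatin immunoprecipitation and sequencing (ChIP-seq), on sonicated DNA of 200 to 800 bp, in 2 biological replicates, numbered 3 and 4. Both belong to a single group, so the design holds no contrast between conditions, and embryos without the tagged protein were not analysed here. Whole embryos were pooled, so binding in few cells and weak binding in many cells cannot be told apart.

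Mitochondrial ribosomes translate the few proteins encoded by mitochondrial DNA, which are core subunits of the respiratory chain and ATP synthase. Their RNA is made in the organelle, but all of their proteins are encoded in the nucleus, translated in the cytosol and imported, so that their supply depends on nuclear promoters. Usf belongs to the upstream stimulatory factors, transcription factors with a basic helix-loop-helix domain and a leucine zipper, and its mammalian relatives bind the E-box CACGTG.

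Peak lists of several kinds were available on the dm6 assembly. The 2767 IDR peaks are the authors' list thresholded by a recurrence measure, and how the threshold was set is not given here. They are exactly the strongest 2767 of the 21315 relaxed peaks called on the pooled reads. Separate relaxed lists held 28459 peaks for replicate 3 and 29246 for replicate 4. Peak signal is the authors' own value, its scaling is not given in the sources used here, and the read depth behind it is unknown. Signals are therefore compared only within a list, and ranks, counted from 1 for the strongest peak, are given for each list separately. A gene was counted as having a peak when a peak's summit lay within 1 kb of any of its annotated transcription start sites (TSSs), and its strongest such peak was taken.

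Sequences from 6 of the 8 strongest peaks are shown first, because the results turn on where these summits lie and which known words they hold. Each is 5′ to 3′ on the strand of the ribosomal protein gene, in dm6, from 100 bp on each side of the summit, shortened where an exon begins. For mRpL23 only 30 bases around its E-box are shown, since the summit itself lies in the 5′ UTR. The windows of the other two, mRpL41 and mRpL34, are not printed here. Capitals mark matches, on either strand, to the E-box CACGTG, the DREF site TATCGATA and its core ATCGAT, the M1BP word GGTCACAC, the BEAF-32 core CGATAG, the ETS factor core CCGGAA, the GAGA factor word GAGAG, the hexamer ACAGTG and the overlapping hexamer CAGTGC. The windows lie at 3R:15229432-15229632 (plus strand) for mRpS10, 2L:13835349-13835549 (minus strand) for mRpS23, 3L:2373686-2373715 (minus strand) for mRpL23, 2L:4945427-4945578 (minus strand) for mRpL24, 3L:13018007-13018207 (minus strand) for mRpL20 and 2L:4850517-4850640 (minus strand) for mRpS2.
mRpS10: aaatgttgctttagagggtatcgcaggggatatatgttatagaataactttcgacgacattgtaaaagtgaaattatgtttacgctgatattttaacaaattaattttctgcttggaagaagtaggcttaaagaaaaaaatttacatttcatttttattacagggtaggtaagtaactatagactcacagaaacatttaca
mRpS23: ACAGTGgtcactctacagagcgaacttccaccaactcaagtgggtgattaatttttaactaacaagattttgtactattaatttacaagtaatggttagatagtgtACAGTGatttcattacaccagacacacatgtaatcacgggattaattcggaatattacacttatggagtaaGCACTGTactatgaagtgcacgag
mRpL23: tgttggacaaccCACGTGcttttacacggg
mRpL24: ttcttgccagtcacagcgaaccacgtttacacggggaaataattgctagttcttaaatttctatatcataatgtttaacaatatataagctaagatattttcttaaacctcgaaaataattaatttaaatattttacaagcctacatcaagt
mRpL20: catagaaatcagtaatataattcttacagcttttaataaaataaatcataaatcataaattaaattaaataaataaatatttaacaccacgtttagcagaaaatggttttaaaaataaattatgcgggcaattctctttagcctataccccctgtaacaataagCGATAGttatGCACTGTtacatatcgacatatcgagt
mRpS2: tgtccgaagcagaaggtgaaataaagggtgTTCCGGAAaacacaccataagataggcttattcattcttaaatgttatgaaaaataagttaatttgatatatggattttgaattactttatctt

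The strongest peak, at mRpS10, held none of the marked words, and neither did the printed window at mRpL24. At mRpS23 one of 3 copies of ACAGTG was centred 8.5 bp from the summit. The palindrome formed by overlapping CCGGAA words at mRpS2 lay 9.5 bp and 11.5 bp from the summit by its word centres, and the ACAGTG of that peak lay outside the stretch shown. Among the 8 strongest peaks, the only CACGTG within 100 bp of a summit lay at mRpL23. It was centred 82.5 bp from the summit, in the 5′ UTR annotated from the most upstream of that gene's 3 TSSs.

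Of the 73 genes, 15 carried an IDR peak whose summit lay at most 1 kb from a TSS (20.5%, 95% Wilson interval 12.9 to 31.2). Among all protein-coding genes the share was 15.3% (2131 of 13968), which lies inside that interval. In the relaxed pooled list, 48 of the 73 had a summit within 1 kb (65.8%, 54.3 to 75.6), against 48.2% of protein-coding genes. The 15 genes had 15 different IDR peaks, and each gene had only 1 such summit within 1 kb. Wilson intervals here cover the counting of genes and not the spread between embryos.

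The peaks spanned a wide range of signal. IDR signals at the 15 genes ran from 71.57 to 1031 with a median of 157, against a median of 134.2 over the 2131 protein-coding genes with an IDR peak. mRpS10, mRpL41, mRpS23 and mRpL23 stood above the others at 679.5 or more, while the next, mRpL24, was at 307.

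mRpS10 encodes a small-subunit protein with a bacterial counterpart, and it carried the highest signal of the set. Its pooled signal was 1031, rank 10 of the pooled list, with 567 in replicate 3 and 461.8 in replicate 4, also rank 10 in both. The gene (FBgn0038307) lies at 3R:15229665-15230516 on the plus strand, and the peak at 3R:15229339-15229727 had its summit 133 bp upstream of the TSS in intergenic sequence. Head to head with it, 257 bp away, starts Art3, a protein arginine methyltransferase gene, and the summit lay 124 bp from that start. The peak interval thus held the start sites of both genes.

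mRpL41 encodes a large-subunit protein found in mitochondrial ribosomes and not in bacterial ones. Its pooled signal was 841.3 (rank 19), and it had 448 at rank 23 in replicate 3 and 390.5 at rank 18 in replicate 4. The gene (FBgn0034001, 2R:15217024-15217617, minus strand) had its summit 136 bp upstream of the TSS. CG8079 starts 762 bp away in the opposite direction, the widest spacing among the 15 pairs, and the summit was on the mRpL41 side, 626 bp from the CG8079 start.

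mRpS23, a small-subunit protein gene (FBgn0260407, 2L:13834250-13835072, minus strand), was at 791.7 in the pooled list (rank 24). Replicate 3 gave 442.9 (rank 26) and replicate 4 gave 351.7 (rank 29). Here the summit was farther from the ribosomal protein gene than in any other of the 15, 377 bp upstream of its TSS, and nearer to the start of CenG1A, at 115 bp. CenG1A encodes a GTPase-activating protein for Arf, and the gap between the start sites was 492 bp.

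mRpL23, whose bacterial counterpart sits at the exit of the peptide tunnel, was the only 1 of the 15 with the summit downstream of the nearest TSS. The gene (FBgn0035335) lies at 3L:2372844-2373704 on the minus strand, and the summit was 60 bp into the transcribed side, in 5′ UTR. Pooled signal was 679.5 (rank 42), and the replicates gave 402.4 (replicate 3, rank 36) and 277.1 (replicate 4, rank 55). The TSS of CG9004 lies 50 bp from the mRpL23 TSS nearest the summit.

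The next members by signal had large-subunit and small-subunit products alike. mRpL24 (FBgn0031651, 2L:4944256-4945361) was at 307, rank 245, with 170.1 in replicate 3 and 134.9 in replicate 4. Its summit was 166 bp upstream of its TSS and 52 bp from that of betaggt-I, a subunit of geranylgeranyl transferase, with 218 bp between the starts. mRpL20 (FBgn0036335, 3L:13017149-13017867) was at 237.9, rank 413, with 125.3 and 109.4 in replicates 3 and 4. It is paired with Icmt, a methyltransferase for prenylated proteins, over 399 bp, and the summit lay 240 bp upstream of mRpL20. Both were again closer to the neighbour's start than to that of the ribosomal protein gene.

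mRpS2 (FBgn0031639, 2L:4849439-4850419) was at 178.6, rank 703, with 90.94 in replicate 3 and 86.11 in replicate 4. The summit was 198 bp upstream of its TSS and 24 bp from that of Mon1, part of the exchange factor for Rab7. mRpL34 (FBgn0083983, 2R:16098948-16099337) was at 157, rank 881, with 82.82 and 71.37 in replicates 3 and 4. Its peak lay 200 bp upstream, between it and Dg, the dystroglycan gene, 384 bp away. In the order of pooled signal these 8 genes kept the same order in both replicate lists.

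Among the other 7, the replicates ordered the genes differently. mRpS6, beside Cip4, was at 154.5, with 94.46 in replicate 3 and 58.81 in replicate 4. mRpL37 was at 120.6, and mRpL11, beside the mitochondrial protease gene HtrA2, at 118.7. mRpS26 (beside CG13698) and mRpS7 (beside the cell cycle kinase gene Cdk1) were at 105.5 and 104.6. mRpS26 showed the widest gap in rank, 2826 in replicate 3 against 953 in replicate 4. mRpL53, at 77.79, and mRpL47, at 71.57, closed the list. mRpL53 shares its upstream region with AGO1, the Argonaute of the microRNA pathway, and mRpL47 with CG8176. A further coding gene had a TSS within 1 kb of the summit, in either orientation, at mRpL47 (the lysine demethylase gene Kdm3), mRpL53 (CG33155) and mRpS6 (CG33514).

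A summit of both relaxed replicate lists lay within 100 bp of the IDR summit at 14 of the 15 genes, against 95% of the protein-coding genes with an IDR peak. IDR peaks are the strongest pooled peaks of these same replicates, in a list cut by a recurrence measure, so this count is a description. The exception was mRpL37, whose replicate 3 summit lay 105 bp away, with a signal of 61.78 and rank 1522. Of the 14, 12 ranked among the strongest 2767 peaks of each replicate, the exceptions being mRpS26 in replicate 3 and mRpL47, at rank 4293, in replicate 4. Rank was better in replicate 3 for 6 of the 14 and in replicate 4 for 7, with mRpS10 equal, so neither replicate was uniformly ahead.

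**Figure D1:**
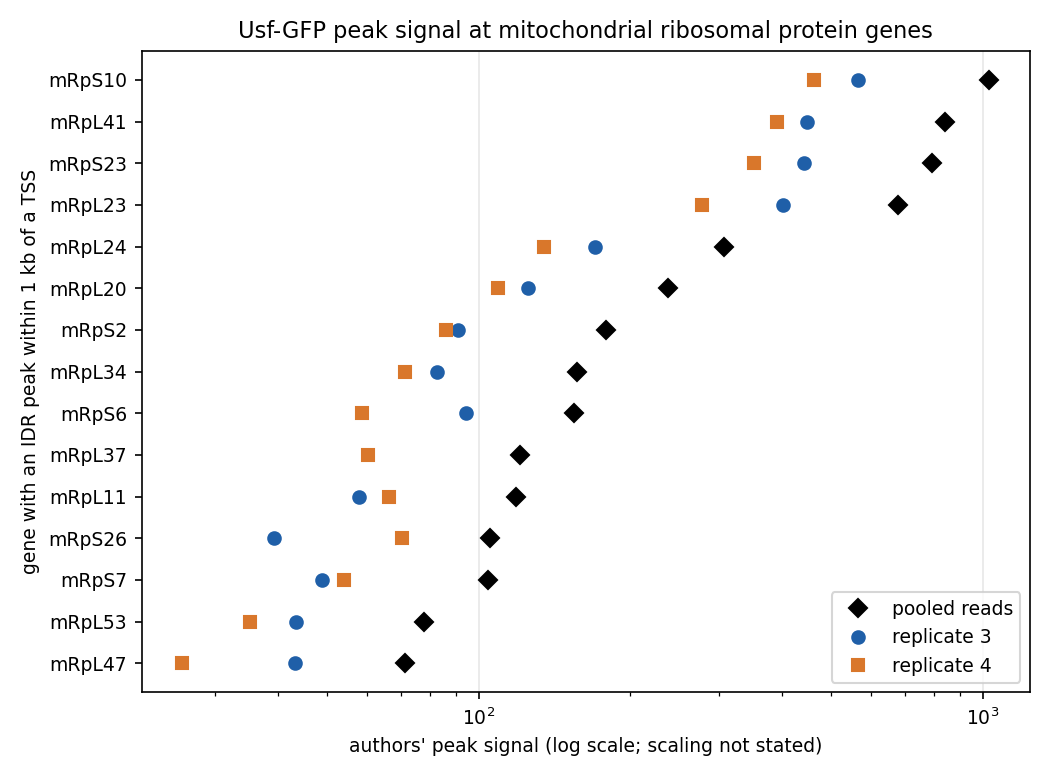
Authors' peak signal (log scale) at the 15 mitochondrial ribosomal protein genes with an IDR peak, for pooled reads (diamonds), replicate 3 (circles) and replicate 4 (squares); no circle is drawn for mRpL37, whose nearest replicate 3 summit lay 105 bp away. The first 4 genes are at 679.5 or more in the pooled list, the fifth at 307, and the order of the first 8 is the same in both replicates.

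All 15 IDR peaks were shared with a divergent neighbour. Each summit lay within 1 kb of a second protein-coding gene that starts head to head with the ribosomal protein gene, on the opposite strand and within 1 kb of it. Over all protein-coding genes with an IDR peak, 58.3% (1242 of 2131) were shared in this way. The gaps between the paired starts ran from 50 to 762 bp with a median of 291 bp, and only mRpL41 exceeded 500 bp.

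This layout is common among these genes whether or not they have a peak. A head-to-head coding neighbour within 1 kb was annotated for 58 of the 73 (79.5%, 68.8 to 87.1), against 36.2% of protein-coding genes. The median gap was 283 bp for the 58 and 298 bp for all genes with such a neighbour. Among genes with a head-to-head neighbour, 15 of 58 mitochondrial ribosomal protein genes had an IDR peak (25.9%, 16.3 to 38.4), close to the 27.3% of all protein-coding genes with that layout. Without such a neighbour, 0 of 15 had one, where the Wilson interval reaches 20.4%, and 8.43% of protein-coding genes without a neighbour did.

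Relaxed peaks were counted in the same way. With a neighbour, 43 of 58 had a relaxed summit (74.1%), against 64.8% of protein-coding genes, and without one 5 of 15 (33.3%), against 38.7%. The median relaxed signal of the 48 genes with a peak was 54.12, against 41.88 over all 6727 protein-coding genes with one. Split by layout, the medians were 59.4 against 58.95 with a neighbour and 27.59 against 33.71 without. Within the paired layout the medians thus differed by little.

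**Figure D2:**
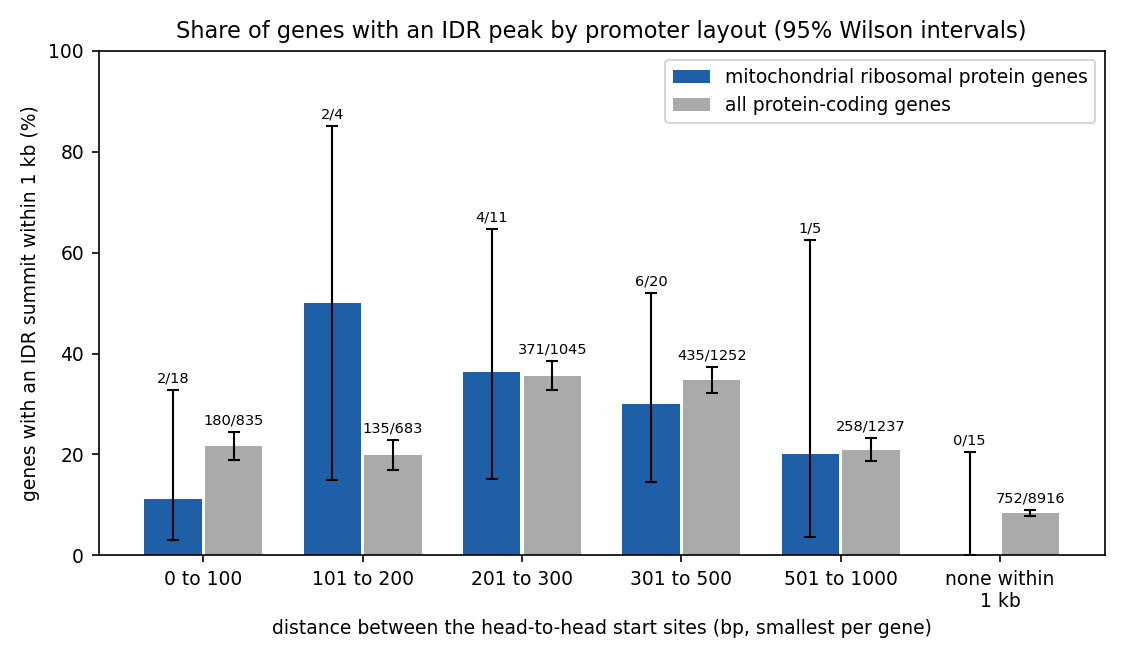
Percentage of genes with an IDR summit within 1 kb, by the smallest distance to a head-to-head coding start site, for mitochondrial ribosomal protein genes (blue) and all protein-coding genes (grey); numbers above the bars are genes with a peak over genes in the class, and whiskers are 95% Wilson intervals. Each blue interval holds the value of the grey bar beside it, and 0 of 15 genes without a neighbour had a peak.

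By spacing, IDR peaks were found at 2 of 18 genes with starts up to 100 bp apart, 2 of 4 above that and up to 200 bp, 4 of 11 up to 300 bp, 6 of 20 up to 500 bp and 1 of 5 up to 1000 bp. The matching shares of all protein-coding genes were 21.6%, 19.8%, 35.5%, 34.7% and 20.9%. Each of the 5 Wilson intervals of the ribosomal protein genes held the matching share.

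Within the pairs, the summit sat between both start sites in 13 of 15. The exceptions were mRpL23, with its summit in its own 5′ UTR, and mRpL11, with its summit in 5′ UTR on the HtrA2 side, 45 bp from the HtrA2 start. The nearer start was that of the neighbour in 10 pairs and that of the ribosomal protein gene in 5. Some calls were close, as at mRpL34, with 184 bp to the neighbour's start and 200 bp to its own. The replicate summits of that peak lay 33 and 63 bp from the IDR summit. No share over all shared IDR peaks is given for these counts or for the 13 of 15. An IDR summit lay within 200 bp of a TSS at 11 of the 73 genes (15.1%, 8.63 to 25), against 8.64% of protein-coding genes. Summits were upstream of the nearest TSS of the ribosomal protein gene at 14 of 15, against 87.4% of protein-coding genes with an IDR peak, at a median distance of 166 bp against 188 bp.

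**Figure D3:**
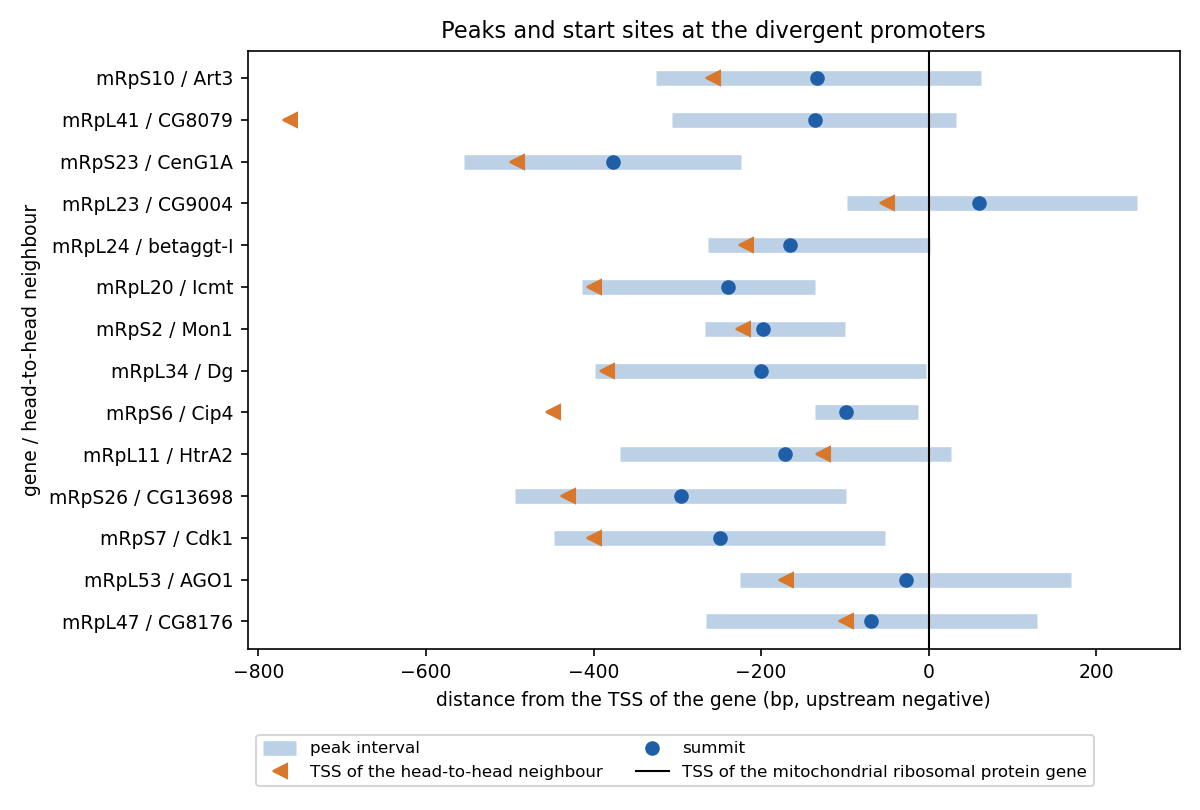
Peak interval (bar), summit (circle) and start site of the head-to-head neighbour (triangle) for 14 of the 15 IDR peaks (mRpL37 is not drawn), in bp from the TSS of the ribosomal protein gene (vertical line, upstream negative), in order of signal. In 12 of the 14 pairs drawn the summit lies between the triangle and the line. The neighbour starts outside the peak at mRpL41, 762 bp away, and at mRpS6, 448 bp away.

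The summit itself fell in intergenic sequence at 12 of the 15 genes, in 5′ UTR at 2 and in an intron at 1 (mRpL53), with 0 in coding exons. Of protein-coding genes with an IDR peak, 58.8% had an intergenic summit. Most of the 73 genes are simply organised, with a single annotated TSS at 67 (91.8%) against 73.5% of protein-coding genes. By chromosome arm, IDR peaks were found at 4 of 12 genes on 2L, 3 of 12 on 2R, 4 of 17 on 3L and 4 of 21 on 3R. The shares of all protein-coding genes on these arms were 15.2%, 13.8%, 16.2% and 16.2%, each inside the Wilson interval of the ribosomal protein genes there. On the X none of 11 had one, where the Wilson interval reaches 25.9% and the share of all X-linked protein-coding genes was 15%.

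Genes with peaks came from both subunits and from both classes of protein. IDR peaks were found at 9 of 47 large-subunit genes (19.1%) and 6 of 26 small-subunit genes (23.1%), with median signals of 157 and 166.6. The share of all protein-coding genes was 15.3%. Classed by the number in the symbol, 9 of 42 genes with bacterial-type numbers (21.4%) and 6 of 31 with higher numbers, given mostly to proteins specific to mitochondria, had a peak (19.4%). The number is a rough guide, since mRpL47, for one, is the counterpart of a bacterial large-subunit protein. Medians were 178.6 for the first class and 113.1 for the second, with both classes present among the strongest 4 and the weakest 4. Relaxed summits were found at 30 of 42 (71.4%) and 18 of 31 (58.1%), against 48.2% of all protein-coding genes.

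The 33 genes with a relaxed peak but no IDR peak ran on from the IDR genes without a step. Their pooled signals were 22.25 to 70.31, with a median of 42.72. Just inside the IDR list lay mRpL53 (77.79) and mRpL47 (71.57), and just outside it mRpL16 (70.31, rank 2824) and mRpS24 (69.12, rank 2873). mRpL16 is X-linked and starts 306 bp from trr, which encodes a histone H3 methyltransferase, and mRpS24 is paired with Apc2. The next were mRpL21 at 68.56, beside the Reptin gene rept, mRpS29 at 66.71, beside the DNA repair gene rad50, and mRpS17 at 61.43, beside Nop60B, which encodes a pseudouridine synthase. All 5 have head-to-head neighbours.

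Of these 33, 28 had a head-to-head neighbour at the summit. The 5 without one were mRpS5 (54.66), mRpL10 (28.36), mRpL19 (27.59), mRpL12 (23.5) and mRpL14 (22.25), of which only mRpS5 was above the median of the 33. Summits lay in intergenic sequence at 19, in 5′ UTR at 7, in introns at 2 and in coding exons at 5. A summit within 100 bp was present in replicate 3 for 25 of the 33, in replicate 4 for 18 and in both for 11. mRpL12 alone had neither. A match in both replicates was thus found for 11 of these 33 and for 14 of the 15 genes above. Those 15 have the stronger pooled peaks, from a list cut by a recurrence measure, so the 2 counts are not a like comparison. For the counts of the 33, no share over all protein-coding genes with only a relaxed peak is given. Whether they differ from such genes was not tested.

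**Figure D4:**
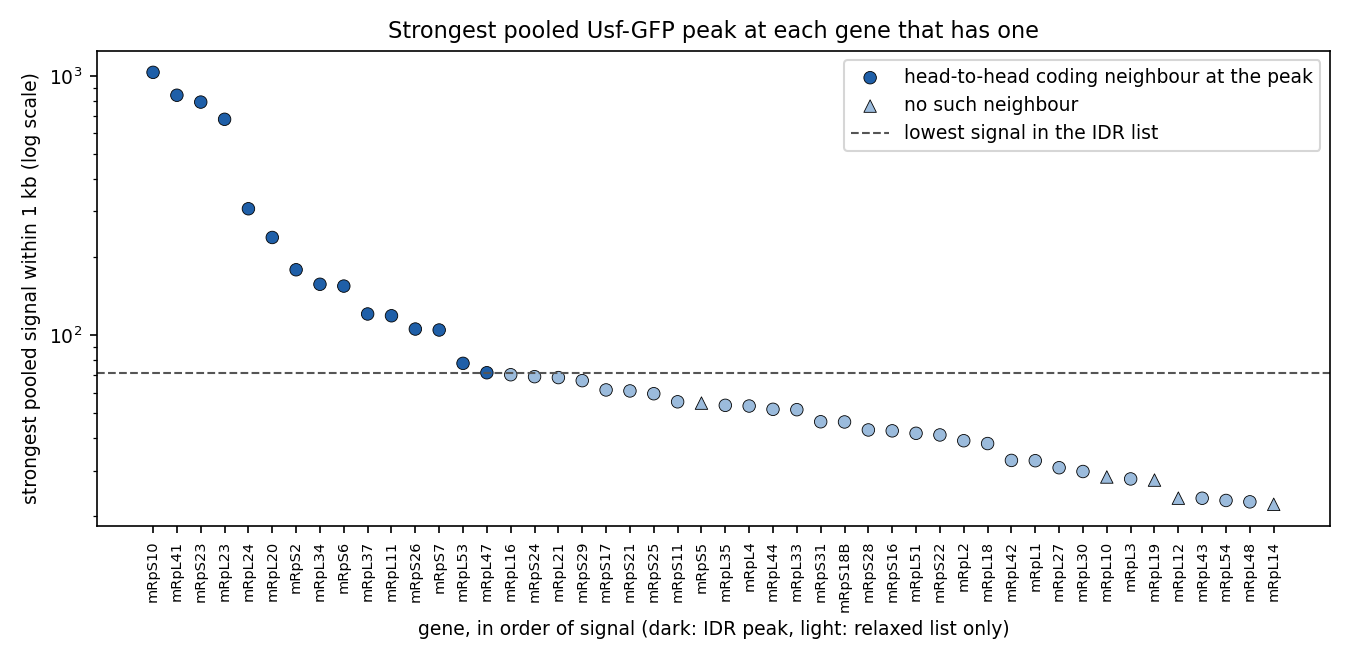
Strongest pooled peak signal within 1 kb (log scale) for the 48 mitochondrial ribosomal protein genes with one, in order, with IDR peaks dark and relaxed peaks light; triangles mark genes with no head-to-head coding neighbour at the peak and the dashed line is the lowest signal in the IDR list, 71.33. Values fall from 1031 to 22.25 without a step at the line, and the 5 triangles are all below it.

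The remaining 25 genes had no summit of the pooled relaxed list within 1 kb, although 15 of them have a head-to-head neighbour. Among them, 6 had a relaxed peak in replicate 3 and 9 in replicate 4, and 11 had none in any list. Over all protein-coding genes, 54.8% had a relaxed summit within 1 kb in replicate 3 and 55.4% in replicate 4. The share among those without a pooled peak is not given. The 25 include mRpL55, which starts 95 bp from ATPsynD, and mRpL39, paired with the proteasome gene Prosbeta2, both named here after their values were seen. Paired starts alone were thus not always accompanied by a peak. For 5 of the 58 genes without an IDR peak, the nearest IDR summit lay between 1 and 2 kb away: mRpL27 (1233 bp), mRpL13 (1452 bp), mRpS24 (1863 bp), mRpL46 (1888 bp) and mRpL12 (1922 bp). Each of these summits was within 1 kb of other coding genes, such as RpL27A for mRpL27.

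Known promoter words were counted around the summits, as a description of 15 peaks. Within 100 bp of the summit, on both strands, CACGTG was present at 1 of the 15 peaks (mRpL23), against 2.46% of all IDR peaks and 3.13% of the 1663 IDR peaks within 1 kb of a coding TSS. Some members with only a relaxed peak also held CACGTG in that window. It was centred 9.5 bp from the summit at mRpL16, 55.5 bp at mRpS11 and 64.5 bp at mRpL30. At mRpL27 the distance was 69.5 bp and at mRpS17 71.5 bp, and no share over all relaxed peaks was computed. The looser E-box CANNTG, which contains CACGTG, was present at 12 of the 15 IDR peaks, against 57.7% and 59.3%. CGATAG, the core of the word bound by the insulator protein BEAF-32, was present at mRpL41, mRpL20, mRpL53 and mRpL47, thus at 4 of 15, against 8.38% of IDR peaks and 12% of those at coding promoters.

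ACAGTG was found at mRpS23, mRpL20, mRpS2 and mRpS6, against 19.2% and 18.5%, and CAGTGC, which overlaps it by shared letters, at mRpS23, mRpL20 and mRpL47, against 15.8% and 13.5%. CCGGAA, the core of ETS factor sites, was found at mRpS2 (4.12% and 5.59%). TATCGATA, the site of the replication-related factor DREF, and GGTCACAC, from the core promoter word bound by M1BP, were at 0 of 15, against 2.71% and 1.55% of IDR peaks. Their absence says only that these letters are not in these windows. ATCGAT, which TATCGATA contains, was at mRpL47 only (9.11% and 11.7%), and GAGAG, bound by GAGA factor, at mRpL23 and mRpL53 (22% and 20.8%). Leaving CANNTG aside, 8 of the 15 held at least 1 of the other 9 words (53.3%), against 56.3% of all IDR peaks and 56.9% of those at coding promoters. The strongest, mRpS10, held neither these nor CANNTG.

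GC content dipped at the summits. In the window reaching 50 bp to each side of the summit, the median GC content of the 15 was 28.7%, against 46.5% in windows of the same size centred 500 bp away on both sides, and the summit window was the lower at 14 of the genes. Over all protein-coding genes with an IDR peak the medians were 32.7% and 47.5%. The lowest values, 21.8%, were at mRpL41 and mRpL37. mRpL53, the one peak with an intronic summit, differed in the opposite direction, at 56.4% around its summit and 44.6% in the flanks. The printed windows show the same stretches of A and T, as at mRpL24, where the summit is base 52. What low GC content and accessible promoter DNA contribute to the peak signals was not tested.

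**Figure D5:**
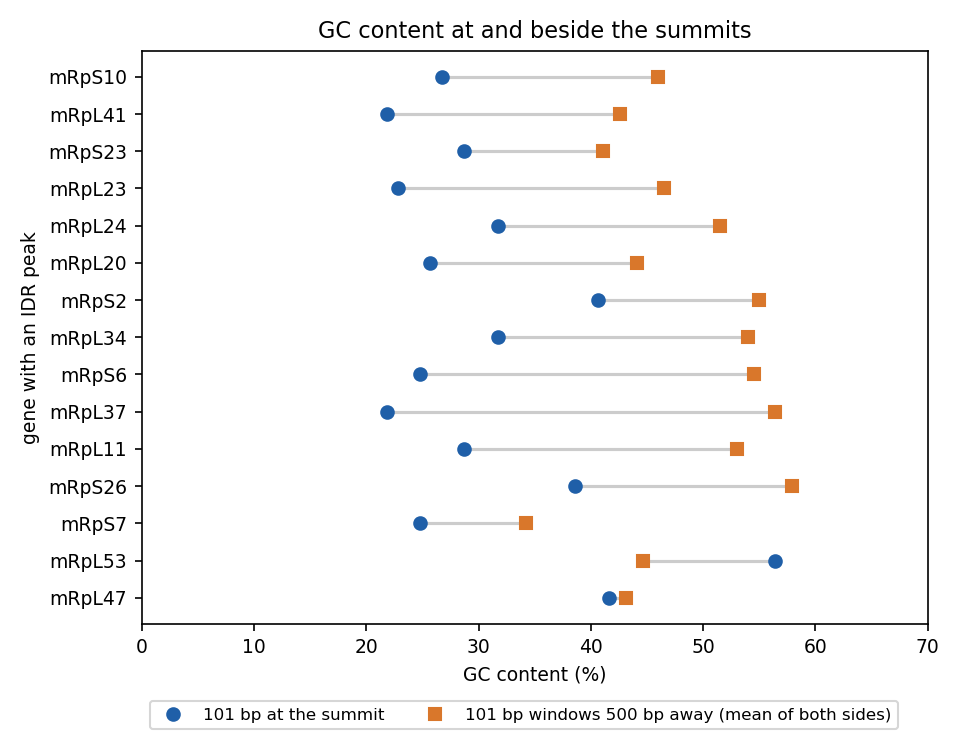
GC content (%) within 50 bp of the summit (circles) and in windows of the same size centred 500 bp away (squares, mean of both sides) for the 15 IDR peaks, in order of signal. The circle is left of the square for 14 genes, and mRpL53 is the exception at 56.4% against 44.6%.

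Other genes of mitochondrial gene expression were counted by the same rules. A list of 22 genes with other symbols held initiation, elongation and release factors, but also transcription genes such as PolrMT and TFAM. Of these 22, 1 had an IDR peak (4.55%, Wilson interval 0.807 to 21.8), against 15.3% of protein-coding genes. It was GatA, a subunit of the amidotransferase that makes glutaminyl-tRNA in mitochondria, with a signal of 138.6 at a promoter shared with P5cr. tko and bonsai, which encode the small-subunit proteins S12 and S15, had no pooled peak. Of 15 mitochondrial aminoacyl-tRNA synthetase genes, 2 had an IDR peak (13.3%), near the share of all protein-coding genes. They were LeuRS-m (301.7), with the summit 824 bp upstream and beside Dhc64C, and ArgRS-m (71.86), beside CG17816. These 2 and GatA were all shared with a head-to-head neighbour by the same definition. At LeuRS-m the paired starts lie 166 bp apart, so its summit did not lie between them.

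Respiratory chain and ATP synthase genes, whose products include the partners of the proteins made by these ribosomes, had an IDR peak at 12 of 86. That was 14%, near the 15.3% of all protein-coding genes. Of the 12, 11 were at divergent promoters, against 58.3% of protein-coding genes with an IDR peak. A head-to-head neighbour was annotated for 44 of the 86. The cytosolic ribosomal protein genes had an IDR peak at 62 of 92 (67.4%, 57.3 to 76.1), including 20 of 37 without a head-to-head neighbour. Among those 92, 55 had such a neighbour and 42 of the 55 an IDR peak. Over all protein-coding genes the shares were 8.43% without such a neighbour and 27.3% with one. For the mitochondrial ribosomal protein genes the corresponding counts were 0 of 15 and 15 of 58, and the Wilson intervals of the total shares, 12.9 to 31.2 and 57.3 to 76.1, did not overlap.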

How the data were processed

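ChIP-seq peak lists of 2 biological replicates were used as the authors deposited them, on dm6. Each peak's signal is the authors' signal value, in a unit not given in the sources used here, as are the aligner, peak caller and IDR threshold. Per the deposited notes, both replicates were set against the same control alignment. The dm3 lists were not used. Read depth is unknown, so no counting error of the signal could be given. No p-value was computed: there is 1 group, and the members and lists were chosen with earlier results of these data known.

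Start sites and features came from the Ensembl release 115 annotation (FlyBase 6.54), and sequence from the RefSeq Release 6 genome, where 99.8% of 30618 annotated start codons read ATG. Scripts used Python 3.11.15, NumPy 2.4.6, SciPy 1.17.1 and Matplotlib 3.10.9 and were checked on simulated peaks. A divergent neighbour is a protein-coding gene on the opposite strand whose TSS lies head to head within 1 kb. Summits in replicates were matched within 100 bp. Motifs were searched on both strands within 100 bp of the summit. Every gene with an IDR peak is named, the 8 strongest in full, then the 5 strongest relaxed peaks. The neighbour of mRpL37 is not reported here. Of 36 symbols written for the list of other translation and transcription genes, alternative spellings included, 22 matched a gene and 14 did not. Alternatives were single replicates, stronger peaks, other distances, TSS choices and windows.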

Additional observations from a re-analysis of the deposited data

How the results depend on the processing

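Most of the 32 alternatives to the main results changed the value. With single replicates, taking as many of the strongest peaks as the IDR list holds, 17 to 18 genes had a peak (15.1% to 15.4% of protein-coding genes did), all of them shared with a divergent neighbour (58.2% and 58% over protein-coding genes). Without replicate 3, mRpL47 was lost and mRpL21, mRpL35, mRpL44 and mRpS21 were gained, and without replicate 4, mRpS26 was lost and mRpS11, mRpS24 and mRpS29 were gained. The 1383 stronger IDR peaks gave 10 of the 73 genes (13.7%), against 8.97% of protein-coding genes. All 10 were shared, against 57.6% of protein-coding genes with such a peak. Within 500 bp of a TSS the count was 15 (13.3% of protein-coding genes), and within 2000 bp it was 20 (18.9%). The median relaxed signal was 60.89 within 500 bp and 54.66 within 2000 bp. Peaks holding any of the 9 words numbered 5 within 50 bp of the summit, 8 within 100 bp and 12 within 200 bp. Of the 22 listed genes with other symbols, 1 to 2 had a peak with single replicates, 2 without replicate 3. Counts for single words changed in most of the 20 alternatives, so they depend on the window. CACGTG was at 0 peaks within 50 bp and 3 within 200 bp. No share over all IDR peaks is given for word counts within 50 or 200 bp, so those counts have no background beside them. No paired analysis was possible because there is only 1 group. With 2 replicates and unknown depth, differences between neighbouring ranks cannot be resolved.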
